A study of Mus musculus with 12 samples.

Results

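This report describes the transcripts of 7 enzymes that remove methyl groups from lysine 9 of histone H3 (H3K9) in mouse male germ cells before and just after birth. The members are Kdm3a, Kdm3b and Jmjd1c of the KDM3 family, and Kdm4a, Kdm4b, Kdm4c and Kdm4d of the KDM4 family. They were taken by gene symbol and not by a rule on measured values, though earlier results of these data were known. All 7 had a row among the 55487 genes of the deposited table. The cells are gonocytes from testes of Mvh-Venus transgenic mice, in which a fluorescent protein marks the germ line, and were collected at embryonic days E13.5 and E16.5, on the day of birth (P0) and on postnatal day 3 (P3). There were 3 libraries at each stage, which carry the numbers 1, 3 and 4 in the table. Titles and source names call every sample WT, but the genotype tag reads Morc1 (+/-) at E13.5 and P0 and Morc1 (-/-) at E16.5 and P3. Only the stage was used to form groups. Between consecutive stages, and between E13.5 and P3, it cannot be told apart from the tagged genotype. Morc1 averaged 1697 ± 115 normalized counts at E13.5, 31378 ± 2641 at E16.5, 7496 ± 214 at birth and 10880.5 ± 276 at P3, but where the allele is altered is not stated, so these levels do not check the tag. Whether the 3 libraries of a stage came from separate animals is not stated, so p-values measure the spread between these libraries, which may be technical.

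Methylated H3K9 marks silent chromatin, including that of transposons and of genes shut off in a lineage. The members carry a JmjC domain, which uses iron, oxygen and 2-oxoglutarate to oxidise the methyl group and release it. KDM3 enzymes act on mono- and dimethylated H3K9, whereas KDM4 enzymes act on the di- and trimethylated forms, and Kdm4a, Kdm4b and Kdm4c also act on H3K36. In fetal life male germ cells stop dividing, regain DNA methylation and silence transposons, and they divide again after birth.

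Values are normalized counts, that is, reads per gene divided by the size factor of the library, and every ± is an SD over 3 libraries. Recovered reads numbered 40946616 to 51533747 per library. Size factors averaged 1.94 at P0 and 0.939 to 1.13 at the other stages, so the scaling matters most for comparisons with P0. Over all genes tested, the median change from P0 to P3 was 0.047 on the log2 scale with the factors of the file, -0.24 with TMM factors, -0.38 with median-of-ratios factors and -0.77 with equal library totals. From E16.5 to P0 it was -0.010, 0.20, 0.24 and 0.64 in the same order, and at E16.5 against E13.5 it was 0.31, 0.40, 0.51 and 0.77. The germ cell markers Ddx4, Dazl, Mael, Tdrd1 and Dnd1 together took 0.463% to 0.675% of the reads in every library. The 6 Sertoli cell markers took 0.00255% to 0.00391% at E13.5, 0.00735% to 0.0166% at E16.5, 0.0475% to 0.0834% at P0 and 0.0104% to 0.0151% at P3. Mast cell markers were all 5 at 0 at E13.5 and took 0.00629% to 0.0121% at P0. Of the 6 macrophage or endothelial markers, 5 rose and 1, Pecam1, fell at E16.5 against E13.5 (median log2 fold change 3.64). Their sum, 0.00821% to 0.00947% of the reads at E13.5 and at most 0.00374% later, was mostly Pecam1 at E13.5 (4618 ± 400.3 normalized counts, against at most 46.7 for each of the others). Leydig, peritubular and blood markers reached 0.0246%, 0.0135% and 0.00960% of the reads, each in a P0 library. Leydig markers ranged nearly as high at E16.5, with 0.00156% to 0.0213% over its libraries, against 0.00468% to 0.0246% at P0. At P3 the Leydig marker Insl3 and the macrophage marker Adgre1 were at 0 in all libraries. Other cell types thus left the most Sertoli and mast cell signal at P0, and its part in the values below was not tested. Fewer cells of a type and less RNA per cell cannot be told apart in such bulk samples.

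The first result is that the 7 genes did not follow a common course. With the size factors of the file, Kdm3a and Kdm4a were highest at E16.5, Kdm3b, Kdm4b and Kdm4c at E13.5, and Jmjd1c and Kdm4d at P3. With equal library totals only Kdm4a and Kdm4c had their highest mean at the same stage as before. Of all 22384 genes tested, 30.7% had their highest mean at E13.5, 19.3% had it at E16.5, 29.9% on the day of birth and 20.2% at P3. All 7 members passed the filter on low values, and all 7 differed among the 4 stages in limma's F-test (Benjamini-Hochberg adjusted p at most 0.00225), as did 95.2% of genes tested. The ratio of the highest to the lowest stage mean was 10.9 for Kdm4a, 5.98 for Kdm4c, 2.95 for Kdm4d, 2.44 for Kdm3a, 2.31 for Kdm4b, 2.23 for Kdm3b and 1.70 for Jmjd1c.

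**Figure D1:**
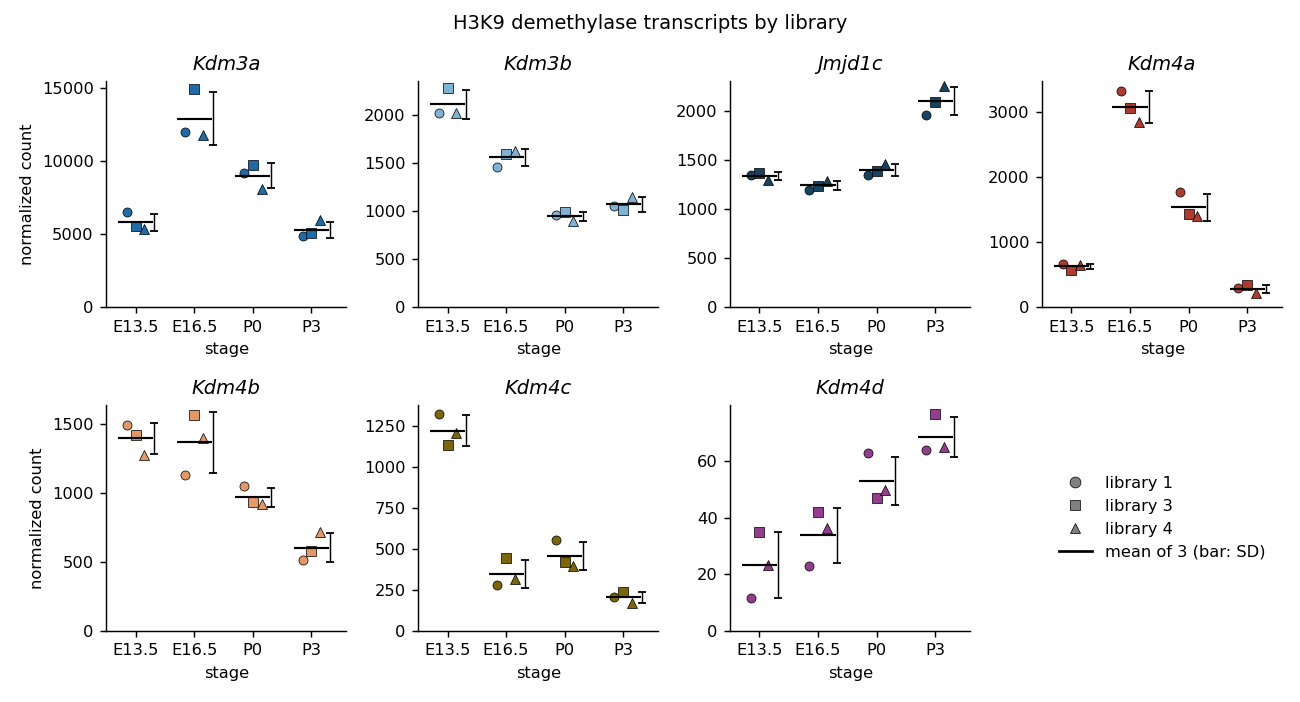
Normalized count (y axis, linear from 0, own scale per gene) of each H3K9 demethylase by stage (x axis). Symbols are the 3 libraries of a stage, the horizontal line is their mean and the bar beside it their SD. With these size factors of the file Kdm3a and Kdm4a peak at E16.5, Kdm4c is highest at E13.5, and Jmjd1c is highest at P3.

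Kdm3a (ENSMUSG00000053470, chromosome 6 at 71588972 to 71632990 on the - strand of GRCm38) encodes an enzyme for mono- and dimethylated H3K9, and mice that lack it have defects in packaging sperm chromatin. Libraries 1, 3 and 4 of E13.5 gave normalized counts of 6494, 5596 and 5343, and those of E16.5 gave 12007, 14996 and 11802. Values then were 9219.9, 9729.6 and 8073 on the day of birth and 4909, 5057 and 5952 by P3. Every E16.5 library lay above every library of the other stages, and the E13.5 and P3 libraries overlapped. Kdm3a rose at E16.5 by 1.15 on the log2 scale (SE 0.107, limma adjusted p 3.42e-08) and fell at P0 by 0.52 (adjusted p 0.000502). It was lower again at P3 than at P0 (log2 fold change -0.76, adjusted p 5.95e-06). Between E13.5 and P3 its log2 fold change was -0.13 (SE 0.107), which did not pass the test (adjusted p 0.284). The rise at E16.5 and the fall at P3 held under each of the 4 scalings. The fall at P0 did not hold with equal library totals, where the log2 fold change was 0.15 and did not pass.

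Kdm3b (ENSMUSG00000038773, chromosome 18 at 34777047 to 34838660, + strand) is the closest relative of Kdm3a, and its loss reduces male fertility in mice. The E13.5 libraries held 2028, 2287 and 2025 normalized counts and the E16.5 libraries 1461, 1597 and 1627. After birth the P0 libraries held 957, 987 and 894 and the P3 libraries 1049, 1009 and 1152. Each stage lay apart from the others, in the order E13.5, E16.5, P3 and P0. It fell by 0.44 (SE 0.0861, limma adjusted p 0.000202) at E16.5 and by 0.72 (adjusted p 1.76e-06) at P0 on the log2 scale. P3 against P0 gave 0.18 and did not pass (adjusted p 0.0727). With equal library totals neither fall passed (log2 fold change 0.071 at E16.5 and -0.060 at P0). Its sign at P3 against P0 turned under every other scaling. There it passed as a fall with median-of-ratios factors (-0.26, limma adjusted p 0.00983) and equal library totals (-0.66, adjusted p 7.62e-06), but not with TMM factors (-0.11). The fall over the whole span, from E13.5 to P3 (-0.98 on the log2 scale, adjusted p 2.63e-08), held under all 4 scalings. An antisense gene, Gm26538, covers 24.6% of the exon bases of Kdm3b and is not among the deposited genes. Since the strand setting of the count is not stated, part of the Kdm3b reads may belong to it.

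Jmjd1c (ENSMUSG00000037876, chromosome 10 at 67096125 to 67256326, + strand) encodes the third KDM3 protein, and mice without it lose male germ cells with age. The E13.5 libraries held 1351, 1371 and 1292 normalized counts, the E16.5 libraries 1199, 1238 and 1285, and the P0 libraries 1348, 1387 and 1462. The P3 libraries held 1963, 2097 and 2253, all above every earlier library. None of the 3 comparisons among E13.5, E16.5 and P0 passed, with log2 fold changes between -0.11 and 0.17 (SE 0.0777) with the size factors of the file and limma adjusted p of 0.205, 0.0647 and 0.445. P3 was higher than E13.5 by 0.65 (adjusted p 1.15e-06) and higher than E16.5 by 0.76 (adjusted p 1.88e-07) on the log2 scale, under all 4 scalings. P3 was also higher than P0 by 0.59 (adjusted p 3.31e-06), but this rested on the scaling. The log2 fold change was 0.15 and did not pass with median-of-ratios factors, and it was -0.25 and passed in the opposite direction with equal library totals. P0 counts passed as higher than those of both fetal stages under all 3 other scalings, and E16.5 passed as higher than E13.5 with equal library totals (log2 fold change 0.40).

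Kdm4a (ENSMUSG00000033326, chromosome 4 at 118136957 to 118180043, - strand) encodes a demethylase of trimethylated H3K9 that also carries histone-binding PHD and tudor domains, and eggs need it for early development. It changed the most of the 7. The E13.5 libraries held 661, 575 and 640.4 normalized counts, the E16.5 libraries 3324, 3070.3 and 2845, the P0 libraries 1766, 1435 and 1399, and the P3 libraries 296, 335 and 214. No 2 stages overlapped. It rose at E16.5 by 2.30 on the log2 scale (SE 0.140, limma adjusted p 1.53e-10), fell by 1.01 at P0 (adjusted p 9.98e-06) and fell by 2.46 at P3 (adjusted p 9.37e-11). It also differed between P3 and the first stage (log2 fold change -1.17, adjusted p 1.198e-06). All 6 comparisons of stages passed in the same direction in all 22 alternatives, with the log2 fold change at P0 against E16.5 between -1.12 and -0.35.

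Kdm4b (ENSMUSG00000024201, chromosome 17 at 56326062 to 56402870, + strand) encodes an enzyme of the same make-up as Kdm4a, known as a partner of steroid receptors. The E13.5 libraries held 1489, 1421 and 1272 normalized counts, the E16.5 libraries 1132, 1566 and 1396, the P0 libraries 1045, 935 and 918, and the P3 libraries 515, 577 and 716. The fetal stages overlapped, and P3 lay below all other stages. Its change from E13.5 to E16.5 was -0.041 on the log2 scale (SE 0.130) and did not pass (limma adjusted p 0.780). It fell by 0.49 at P0 (adjusted p 0.00395), which did not pass with TMM, median-of-ratios or equal-total scaling, and fell by 0.69 at P3 (adjusted p 0.000142), which passed under all 4.

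Kdm4c (ENSMUSG00000028397, chromosome 4 at 74242497 to 74405860, + strand) encodes the third enzyme with PHD and tudor domains and supports self-renewal of embryonic stem cells. The E13.5 libraries held 1325, 1137 and 1210.4 normalized counts, against 278, 445 and 319 in the E16.5 libraries. The P0 libraries held 555, 422 and 399 and the P3 libraries 206, 237 and 171. E13.5 lay above and P3 below all other stages, whereas E16.5 and P0 overlapped. It fell at E16.5 by 1.84 on the log2 scale (SE 0.174, limma adjusted p 4.60e-08) and fell at P3 by 1.16 (adjusted p 1.43e-05), and both falls held under each scaling. P0 against E16.5 gave 0.41 (SE 0.174) and lay at the threshold (adjusted p 0.0506). It passed as a rise in 12 of 22 alternatives, edgeR and DESeq2 among them, with adjusted p from 3.74e-05 to 0.234.

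Kdm4d (ENSMUSG00000053914, chromosome 9 at 14462548 to 14500482, - strand) encodes a short KDM4 enzyme without the PHD and tudor domains. Its longest coding sequence gives 510 residues, against 1054 to 1086 for the other KDM4 genes. The gene is known for its transcripts in the adult testis, and mice without it stay fertile. It was the lowest of the 7, with 11 to 120 reads per library. The E13.5 libraries held 11.6, 34.8 and 23.1 normalized counts, the E16.5 libraries 22.9, 41.8 and 36.4, the P0 libraries 62.7, 46.7 and 49.7, and the P3 libraries 64.0, 76.6 and 64.8. No consecutive comparison passed in limma (log2 fold change 0.60, 0.67 and 0.37, SE 0.369, adjusted p 0.141, 0.127 and 0.372) with the size factors of the file. Its rise from E16.5 to P0 passed under all 3 other scalings, and that from E13.5 to E16.5 passed with median-of-ratios factors and equal totals. Over longer spans it rose by 1.27 from E13.5 to P0 (adjusted p 0.00414) and by 1.64 from E13.5 to P3 (adjusted p 0.000790) on the log2 scale, under all 4 scalings. P3 was higher than E16.5 by 1.04 (adjusted p 0.0195), but not without E16.5 library 1 or without P3 library 3 (adjusted p 0.00463 to 0.0921 over its alternatives). A share of 10.2% of the 50-base words in its transcripts also occurs in other genes, mostly Kdm4dl, so some of its few reads could belong to that copy.

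Read by comparison, 4 of 7 members passed at E16.5 against E13.5, 2 higher and 2 lower, against 80.1% of all genes tested (45.5% higher and 34.6% lower). The stages did not overlap for 5 members and for 80.2% of genes. The median log2 fold change was -0.041 for the members and 0.31 for all genes. From E16.5 to P0, 4 of 7 fell and none rose, against 61.0% of genes passing (33.4% lower and 27.6% higher), with medians of -0.49 and -0.010. Here 6 members and 69.5% of genes did not overlap. At P3 against P0, 4 fell and 1 rose, against 76.5% of genes passing, 36.4% lower and 40.1% higher, with medians of -0.69 and 0.047. Here 7 members and 81.0% of genes did not overlap. With equal library totals the members gave 5 rises and 1 fall, 3 rises and 1 fall, and no rise and 6 falls at these 3 steps, and TMM factors gave 3 rises and 3 falls from E16.5 to P0. No test set the members' shares against those of all genes. Only 3, 1 and 4 of these calls held under all 4 scalings. The comparisons share stages, so their counts are not independent.

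In the spans that end at P3, from E16.5 and from E13.5, every call of a member held under the 4 scalings. All 7 members passed between E16.5 and P3, 5 lower and 2 higher at P3, in each of the 4 scalings, where 69.5% of all genes passed (35.2% lower and 34.2% higher). The libraries did not overlap for any of the 7, nor for 71.6% of genes. The 5 lower were Kdm3a, Kdm3b, Kdm4a, Kdm4b and Kdm4c, and the largest fall was that of Kdm4a (log2 fold change -3.47, SE 0.140, limma adjusted p 2.18e-12). Between E13.5 and P3, 6 of 7 passed, 4 lower and 2 higher, against 70.4% of genes (31.2% lower and 39.2% higher), and all 6 held under the 4 scalings. These 6 members and 71.3% of genes did not overlap. Kdm4c fell the most there (log2 fold change -2.58, adjusted p 9.61e-10). The tagged genotype also differs between E13.5 and P3, so stage cannot be told apart from it in this span. Between E13.5 and P0, 6 of 7 passed, 3 higher and 3 lower, against 86.1% of genes (45.7% higher and 40.5% lower). The same number of members and 88.1% of genes did not overlap. The 3 higher, Kdm3a, Kdm4a and Kdm4d, held under all 4 scalings. The falls of Kdm3b and Kdm4c passed with TMM and median-of-ratios factors but not with equal library totals. The fall of Kdm4b passed with neither TMM (log2 fold change -0.22) nor median-of-ratios factors (-0.049). With equal library totals Kdm4b passed as a rise (0.64, limma adjusted p 0.000382).

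**Figure D2:**
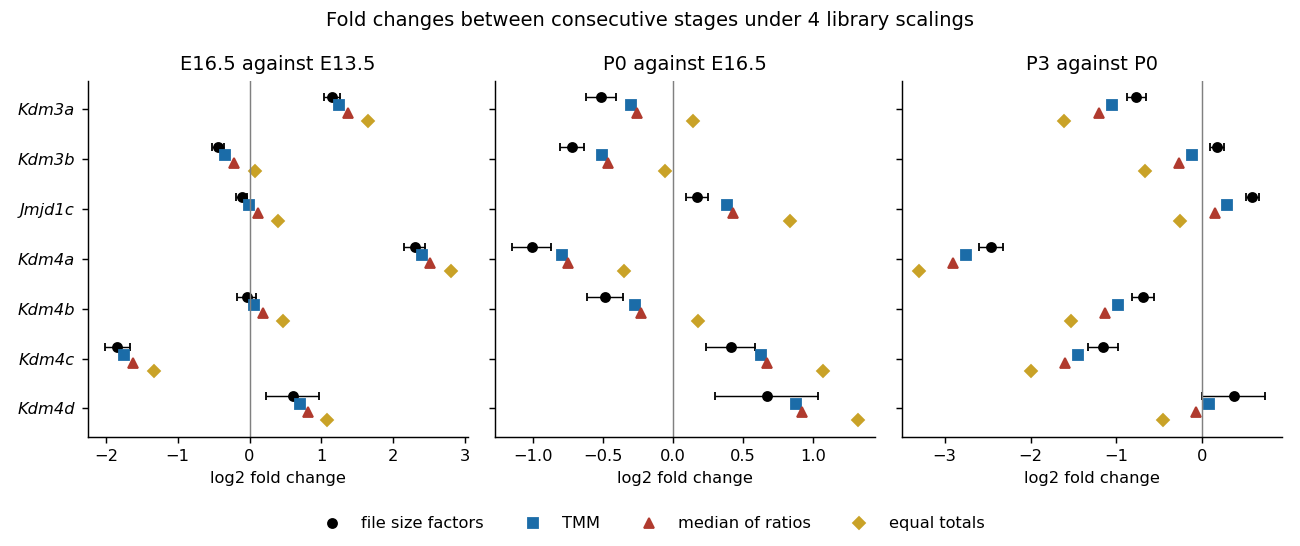
Log2 fold change (x axis) of each member (rows) between consecutive stages, with the size factors of the file (black, bar: SE) and with TMM, median-of-ratios and equal-total scaling. Another scaling shifts all members of a panel by about the same amount: Kdm4a at E16.5 stays between 2.30 and 2.80, whereas Kdm3b at P3 turns from 0.18 to -0.66.

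Ratios between members within a library do not depend on the size factor. Divided by exon length (per kb of GENCODE M21 exons), the ratio of Kdm4a to Kdm4c was 0.502, 0.509 and 0.533 in the E13.5 libraries and 12.1, 6.94 and 8.98 in the E16.5 libraries. It was 3.20, 3.43 and 3.53 in the P0 libraries and 1.44, 1.42 and 1.257 in the P3 libraries. Kdm4c transcripts thus outnumbered those of Kdm4a in all E13.5 libraries, and the order was the reverse in the 9 later ones. No 2 stages overlapped. The ratio was picked after its values were seen and carries no test. In the KDM4 family as a whole, Kdm4b held the largest share of the summed level per kb at E13.5 (46.6% ± 2.16) and P3 (53.3% ± 7.73), and Kdm4a at E16.5 (60.4% ± 5.51) and P0 (47.3% ± 0.595). The share of Kdm4c went from 34.4% ± 1.47 at E13.5 to 6.71% ± 1.31 at E16.5, and that of Kdm4d was 1.35% ± 0.707 at E13.5 and 10.4% ± 0.692 at P3. With the size factors of the file, the summed KDM4 level was 611 ± 34.02, 883 ± 51.9, 559.8 ± 66.5 and 231 ± 15.1 normalized counts per kb over the 4 stages in order. Unlike the ratios and shares, these sums depend on the scaling, and they were not computed under the others. Factors averaged 0.939 at E13.5 and 1.94 at P0 in the file, against 1.33 and 1.22 with equal library totals.

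In the KDM3 family, Kdm3a held most of the level per kb at every stage, with 75.7% ± 2.21, 89.6% ± 1.23, 88.2% ± 0.976 and 76.8% ± 0.717 over the 4 stages in order. The share of Kdm3b was 16.2% ± 1.74 at E13.5 and 5.42% ± 0.188 at P0. The share of Jmjd1c was 8.08% ± 0.496 at E13.5, 4.01% ± 0.502 at E16.5 and 14.1% ± 0.532 at P3. By level per kb, Kdm3b was thus the second KDM3 transcript at both fetal stages and Jmjd1c at both stages after birth, with libraries that did not overlap. This order rests on the exon lengths used, 14095 bases for Kdm3b and 17822 for Jmjd1c. At P0 the gap was small, with 67.1 ± 3.37 for Kdm3b and 78.5 ± 3.26 for Jmjd1c in normalized counts per kb. The antisense overlap of Kdm3b also bears on it, and other lengths were not tested. Over all 7 members, Kdm3a had the highest level per kb at each stage (1573 ± 217 normalized counts per kb at E16.5), above 81.8% to 93.8% of genes tested, and Kdm4d the lowest (8.11 ± 4.06 at E13.5). The next after Kdm3a was Kdm4b at E13.5 (285 ± 22.7) and P3 (123 ± 21.0) and Kdm4a at E16.5 (533 ± 41.4) and P0 (265 ± 35.0). At P3, Kdm4b and Jmjd1c (118 ± 8.14) did not differ beyond their spread.

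**Figure D3:**
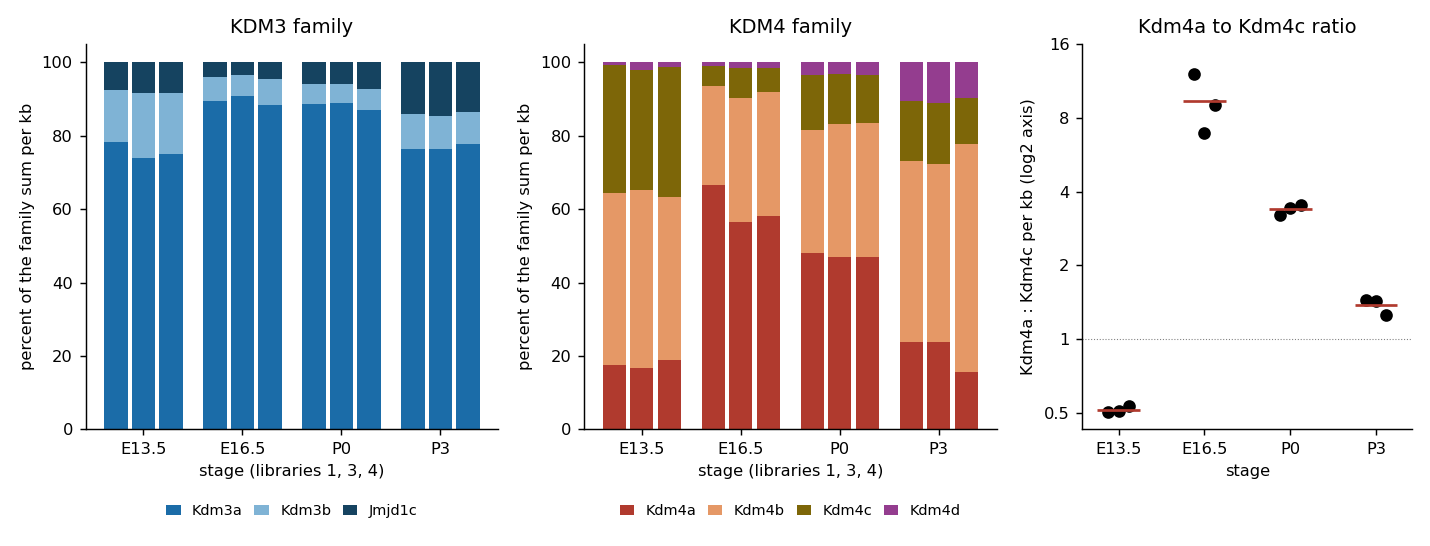
Left and middle: share of each gene (percent of the family sum of normalized counts per kb) in each of the 12 libraries, as stacked bars in the order 1, 3 and 4 within a stage. Right: ratio of Kdm4a to Kdm4c per kb (log2 axis), with points for libraries and lines for stage means, below 1 at E13.5 and 6.94 to 12.1 at E16.5.

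RefSeq start sites (GRCm38.p6) were at hand for 5 members. The 250 bases before the start are shown for Kdm4a and Kdm4c, which moved in opposite directions at E16.5 and whose windows overlap no exon of GENCODE M21. Where a gene had several starts, the one nearest to the GENCODE start of the transcript with the longest coding sequence was taken. Capitals mark the letters CCAAT on either strand, the core of the CCAAT box found before many genes. They occur in 33.8% of 32817 such windows of all genes, in those of Kdm3a (2 matches), Kdm4a (1) and Kdm4d (2), and not in those of Jmjd1c and Kdm4c.
Kdm4a, chr4:118180044-118180293, - strand: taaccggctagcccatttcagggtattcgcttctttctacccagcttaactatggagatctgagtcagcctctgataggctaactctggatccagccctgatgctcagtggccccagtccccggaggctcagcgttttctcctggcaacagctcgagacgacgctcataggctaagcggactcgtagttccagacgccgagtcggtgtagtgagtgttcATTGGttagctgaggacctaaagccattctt
Kdm4c, chr4:74242247-74242496, + strand: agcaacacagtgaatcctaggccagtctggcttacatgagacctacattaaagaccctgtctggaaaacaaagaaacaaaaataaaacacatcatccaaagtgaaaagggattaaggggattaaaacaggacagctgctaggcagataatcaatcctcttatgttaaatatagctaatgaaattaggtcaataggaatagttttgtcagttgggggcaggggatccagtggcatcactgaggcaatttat
The windows differ in base composition. The one of Kdm4c holds 0 CpG and 39.6% G and C, those of Kdm3a and Kdm4a 20 and 12 CpG, and that of Jmjd1c 40 CpG and 79.6% G and C. Kdm4c has another RefSeq start, at 74251879, whose window holds 19 CpG. ACGTG or GCGTG, the core bound by hypoxia-inducible factors (ACGTG also lies within the E box CACGTG), occurs on either strand in 38.6% of all windows, once in Kdm3a and 2 times in Jmjd1c. GGGCGG, the GC box, occurs in 32.7% of all windows, 2 times in Kdm3a and 3 times in Jmjd1c. These matches are a description of the letters and not of binding.

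The genes with the most similar course were taken by the root mean square difference between log2 values, each centred on the gene's mean, over the 12 libraries and among 12205 named genes with a mean of at least 100. For Kdm3a they were Dctn1, Heatr1 and Ppm1l (difference 0.0882 to 0.128 log2 units, where the spread of Kdm3a about its own mean was 0.531). Heatr1, a ribosome biogenesis factor, went from 7696 ± 656 to 15644 ± 451, 11131 ± 723 and 7132 ± 757 over the 4 stages. For Kdm3b they were Birc2, Pole and Ttc14 (0.1004 to 0.110, spread 0.463), and for Jmjd1c Zfp407, Inpp5f and Fam208b (0.0665 to 0.0933, spread 0.300). For Kdm4a they were Cd55, Ahi1 and Chrnb4 (0.248 to 0.254, spread 1.32). Cd55, which shields cells from complement, went from 513 ± 39.0 to 1758 ± 170.0, 1148 ± 22.7 and 187 ± 37.9 over the 4 stages. For Kdm4b they were Ift140, Ercc4 and Pxk (0.0892 to 0.152, spread 0.515), and for Kdm4c Brpf3, Tmem62 and Adck2 (0.243 to 0.249, spread 0.963). For Kdm4d they were Nol4l, Slc22a21 and Stat6 (0.284 to 0.351, spread 0.733). Among the members, the closest pair was Kdm3b with Kdm4b (0.358) and the furthest Kdm4a with Kdm4d (1.67). No member was as close to another as to its 3 nearest genes. Those were the closest of 12205 genes, so this outcome was nearly fixed in advance and says little about the members.

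Other enzymes reported to demethylate H3K9 were Kdm1a, which also acts on H3K4, Kdm7a, Phf8, Phf2, Hr and Riox2. At E16.5 against E13.5, 5 of 6 rose and none fell (median log2 fold change 1.07). Of all genes tested, 45.5% rose and 34.6% fell there. From E16.5 to P0, 27.6% rose and 33.4% fell, and from P0 to P3, 40.1% rose and 36.4% fell. These shares, with the size factors of the file, stand beside the counts of the lists below too, and no test set a list against them. Phf8 rose from 852 ± 28.2 to 2404 ± 202 normalized counts and Kdm1a from 22968 ± 890.1 to 35887 ± 2538. Phf2 went from 39.3 ± 7.39 to 169 ± 26.7 (log2 fold change 2.08, limma adjusted p 1.19e-07) and Hr from 2.83 ± 1.203 to 110.1 ± 9.40 (log2 fold change 4.90). None of the 6 turned under another scaling. From E16.5 to P0, 4 of 6 fell and none rose, led by Riox2 (log2 fold change -2.07, adjusted p 1.81e-12) and Hr (-1.50). These were 3 falls and 2 rises with equal library totals. At P3 against P0, Riox2 and Hr rose by 1.182 and 1.264, and Phf8 fell by 0.97 and Kdm1a fell by 0.31. With equal totals 1 rose and 4 fell.

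Most genes of the opposing enzymes and their cofactors fell at E16.5. Of 10 H3K9 methyltransferase and cofactor genes, 7 fell and 2 rose (median log2 fold change -1.24), against 34.6% and 45.5% of all genes tested. Suv39h1, which trimethylates H3K9, fell from 5757 ± 109 to 1955 ± 157, and Setdb2 from 2583 ± 211 to 789 ± 74.3. Ehmt2, which dimethylates H3K9 and so acts on the substrate of the KDM3 enzymes, rose from 7831 ± 48.5 to 19610 ± 980.1, and its partner Ehmt1 fell by 1.51. The count of 7 falls was the same under each of the 4 scalings. From E16.5 to P0, 8 fell and 1 rose. These were 3 falls and 4 rises with equal library totals. At P3 against P0, 7 rose and 1 fell, led by Suv39h1 (log2 fold change 2.84, limma adjusted p 6.63e-14), whereas Ehmt2 fell by 1.77. These were 5 rises and 5 falls with equal library totals. Ehmt2 thus had its highest mean at E16.5 and lowest at P3, the same order of stages as Kdm3a and Kdm4a with the size factors of the file.

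All 6 genes for readers of H3K9 methylation fell at E16.5 (median log2 fold change -2.16), and all 6 rose at P3 against P0 (1.81). With equal library totals these were 5 falls with 1 rise and 5 rises with 1 fall. Of all genes tested, 34.6% fell at E16.5 and 40.1% rose at P3 against P0 with the size factors of the file. Cbx1 and Cbx3, which encode HP1 proteins, fell by 3.62 and fell by 2.71 at E16.5, and Cbx1 rose by 2.90 at P3. Of 9 other JmjC demethylases, which act on H3K4, H3K27 or H3K36, 5 fell and 1 rose at E16.5 (median -0.39). Kdm5c fell from 1411 ± 187 to 513 ± 98.6, and Kdm5b rose by 0.32. With equal library totals 3 fell and 4 rose. From E16.5 to P0, 4 fell and 1 rose, which with equal totals were 1 fall and 4 rises, and at P3 against P0, 6 rose and none fell, but with equal totals none rose and 7 fell. In the plot of the lists the H3K9 demethylases beyond the 7 members had the highest median of the lists drawn at E16.5, with no test between lists. Several marker lists of other cell types, which are not drawn, had higher medians there.

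**Figure D4:**
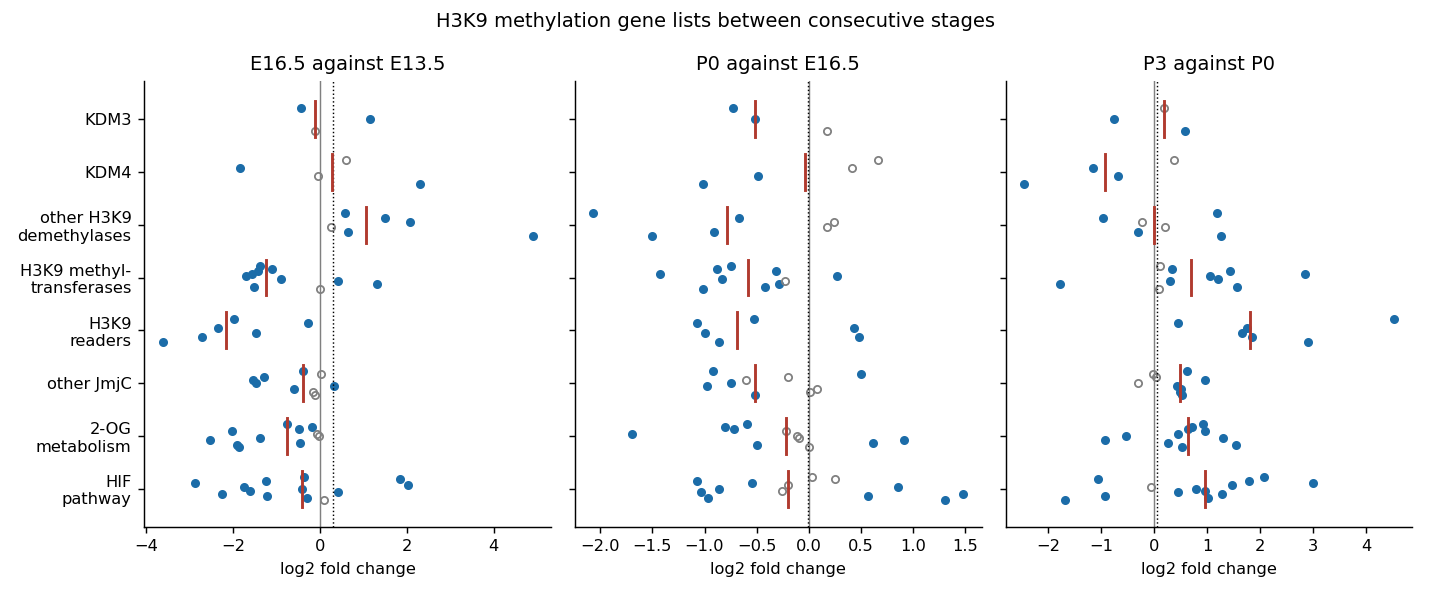
Log2 fold change (x axis) of each gene of the fixed lists (rows) between consecutive stages. Filled points passed limma's test (adjusted p under 0.05), open points did not, red lines are list medians and the dotted line is the median of all genes tested. At E16.5 against E13.5 the medians are 1.07 for the other H3K9 demethylases, -1.24 for the methyltransferases and -2.16 for the readers.

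Of 11 genes listed around 2-oxoglutarate, the co-substrate of the JmjC enzymes, 9 were lower at E16.5 and none higher (median log2 fold change -0.76). Of all genes tested, 34.6% were lower and 45.5% higher there. Among the 11, Sdha, Sdhb and Fh1, all lower, encode enzymes of succinate and fumarate that neither make nor use it. Idh2, a mitochondrial enzyme that makes 2-oxoglutarate, fell from 6413 ± 317 to 1129 ± 276. Of the subunits of another, Idh3a fell (log2 fold change -1.37), and Idh3b (-0.011) and Idh3g (-0.076) did not pass. With equal library totals 6 of the 11 fell and 3 rose. From E16.5 to P0, 5 fell and 2 rose, and with equal totals 2 fell and 7 rose. At P3 against P0, 9 rose and 2 fell, and with equal totals 2 rose and 6 fell. Kdm3a, Kdm4b and Kdm4c are known targets of the hypoxia-inducible factors. Of 13 genes of that pathway, 9 fell and 3 rose at E16.5. Hif1a itself fell from 9368 ± 1052 to 2794 ± 229, whereas the targets Vegfa and Ndrg1 rose by 1.85 and 2.02 and Pdk1 fell by 2.87. With equal totals 6 fell and 4 rose. At P0 against E16.5, 5 fell and 4 rose, and at P3 against P0, 9 rose and 3 fell, with Pdk1 rising by 2.999 and Ankrd37 falling from 1313 ± 109.8 to 409 ± 49.5. With equal totals these were 3 falls with 8 rises and 5 rises with 5 falls.

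Of the genes known to depend on Kdm3a or Kdm4c in embryonic stem cells, 3 were tested. Nanog, a pluripotency factor tied to Kdm4c there, fell at all 3 steps, with means of 3615 ± 396, 238 ± 55.3, 62.9 ± 1.80 and 2.64 ± 0.610 over the 4 stages. Tcl1, tied to Kdm3a, had 23849 ± 958, 1615 ± 169, 854 ± 55.9 and 13318 ± 670.1 normalized counts over the 4 stages in order. It fell at E16.5 and P0 and rose at P3. Zfp57, also tied to Kdm3a, had 13.4 ± 5.06, 24.4 ± 7.49, 33.99 ± 5.07 and 59.8 ± 10.7 normalized counts over the 4 stages. It passed only at E16.5 against E13.5 of the consecutive comparisons in limma (log2 fold change 0.84, adjusted p 0.0435), and neither edgeR nor DESeq2 called it there. Both called it higher at P3 than at P0, and limma with equal totals called it higher at P0 than at E16.5. The directions of Nanog and Tcl1 held at each step under all 4 scalings.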

How the data were processed

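Male germ cells gave 12 RNA-seq libraries, 3 per stage, made with a SMART-seq v4 kit for cDNA and a TruSeq kit, per the labels' protocols. The deposited signal is a read count per gene divided by 1 RLE size factor per library. The submitters' processing notes name cutadapt 1.18, HISAT2 2.1.0, featureCounts 1.5.2, DESeq2 1.26.0 and the builds mm10 and GRCm38. The annotation release, the strand setting and how multi-mapping reads were treated are not given in the sources used here. Dividing each column by the value of 1 read gave whole numbers for 100% of its values (tolerance 0.001), and these recovered reads and the size factors were used. RLE is a name for median-of-ratios scaling, but median-of-ratios factors computed from the recovered reads did not reproduce those of the file. They averaged 1.07 at E13.5 and 1.58 at P0, against 0.939 and 1.94 in the file. The reason for this difference was not tested.

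Columns were assigned to stages only, since their numbers 1, 3 and 4 are not the replicate numbers of the titles. Symbols matched 55141 of 55487 identifiers (99.4%). Positions, exon lengths and overlaps came from GENCODE M21 (GRCm38), promoter windows from RefSeq. Main test: limma 3.58.1 in R 4.3.3 (trend) on log2(normalized count + 1), for 22384 genes with at least 10 in at least 3 libraries, 1 fit of 4 stages (8 residual degrees of freedom), Benjamini-Hochberg adjusted p under 0.05 over all genes. Log2 fold changes carry this pseudocount, which understates changes of low genes. Alternatives were TMM, median-of-ratios and equal-total scaling, a pseudocount of 0.1 or 10, dropping the filter or raising it to a mean of 100, edgeR 4.0.16 (quasi-likelihood) and DESeq2 1.42.0 on recovered reads, only the stages compared, and each library left out. On recovered reads edgeR called 17851, 14370 and 17358 genes at the 3 consecutive comparisons, against 17932, 13658 and 17122 by limma. On simulated data with 199 genes changed 4-fold at P0 among 21210 tested, limma recovered 89.9% between E16.5 and P0 and 92.0% between P0 and P3, with 18 and 7 unchanged genes called. The simulated reads were drawn and scaled with the same size factors, and few genes changed. The simulation therefore checks the code and not the scaling or the share of false calls in the real data.

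Members, lists and tests were chosen with earlier results of these data known. Named genes are the members, up to 2 called genes of each list with the highest and the lowest fold change per consecutive comparison, and the 3 genes nearest to each member. Not every list gene that this rule allows is named in the text, and 1 of them is withheld and not reported here. Other list genes named (Kdm1a and Phf8 at E16.5, Ehmt1 and Hif1a at E16.5) and the ratio of Kdm4a to Kdm4c were chosen after values were seen. Python 3.11.15 with numpy 2.4.6, pandas 2.3.3 and matplotlib 3.10.9 was used for other steps.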

Additional observations from a re-analysis of the deposited data

How the results depend on the processing

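No paired analysis was possible because column numbers (1, 3 and 4) and replicate numbers (1 to 3) could not be matched. Of 42 fold changes (7 members, 6 comparisons), 34 kept direction and call with TMM, 30 with median-of-ratios and 24 with equal-total scaling, against 41 with either pseudocount, edgeR, DESeq2 or only the stages compared, 42 with no filter and 35 of 36 with a mean of at least 100, which leaves out Kdm4d. Directions turned with equal totals for Kdm3a (0.15 at P0 against E16.5, 0.20 at P3 against E13.5), Kdm3b (0.071 at E16.5 against E13.5, 0.011 at P0 against E13.5, -0.66 at P3 against P0), Jmjd1c (0.40 at E16.5 against E13.5, -0.25 at P3 against P0), Kdm4b (0.47 at E16.5 against E13.5, 0.18 at P0 against E16.5, 0.64 at P0 against E13.5) and Kdm4d (-0.46 at P3 against P0). The median-of-ratios factors turned Kdm3b (-0.26) and Kdm4d (-0.065) from P0 to P3 and Jmjd1c (0.11) and Kdm4b (0.18) at E16.5 against E13.5. With TMM they turned for Kdm3b (-0.11) at P3 against P0 and Kdm4b (0.057) at E16.5 against E13.5. Another scaling adds about 1 shift to all genes of a comparison, by its construction. Leaving out 1 library kept 495 of 504 fold changes, and turned only Kdm4b at E16.5 against E13.5 (-0.15 to 0.088, above 0 without E13.5 library 1 or E16.5 library 1). The members called were then 4 to 5 in each of the first 2 steps, and 6 to 7 between E16.5 and P3. Counts over all genes moved by over 1.5 times only with a mean of at least 100, which tests 13135 genes: 11459 and not 17932 from E13.5 to E16.5, 11249 and not 17122 from P0 to P3, 11968 and not 19280 from E13.5 to P0, and 13040 and not 21300 among stages. The share of called genes that were higher was 69.1% with equal totals and 56.8% with the file's factors from E13.5 to E16.5, 77.8% and 45.2% from E16.5 to P0, and 26.5% and 52.4% from P0 to P3. From E13.5 to P0 it was 76.0% and 53.0%, and from E13.5 to P3 68.4% and 55.7%. Depth limits Kdm4d, with 11 to 120 reads per library.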
